A study of Mus musculus with 16 samples.

Results

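The data described here are the 4 RNA sequencing libraries of uninjured whole retina among the 16 samples of a mouse optic nerve injury series, chosen by their column names in a table of 19961 genes. All came from C57BL/6 mice, given as adult and around 6 weeks of age, and the labels name neither a virus nor a nerve crush for this group. The other 3 groups, which received adeno-associated virus and a crush, were not used. The labels do not say whether a library was made from 1 animal, from 1 eye or from pooled retinas, so the spread between the 4 may be technical. The question asked of these columns was which genes the uninjured tissue held, at what level, in which order and with what spread. No test between groups was made.

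The retina turns light into nerve signals through a chain of cell types. Rods serve dim light and cones bright light and colour: in both, an opsin pigment activates the G protein transducin, which activates a cyclic GMP phosphodiesterase, and the fall in cyclic GMP closes cation channels. Bipolar cells carry the signal from photoreceptors to ganglion cells, horizontal and amacrine cells shape it, and the ganglion cell axons form the optic nerve. Müller glia span the tissue, recycle glutamate and take part in returning retinoid to cones. In mice rods far outnumber the other retinal cells.

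The transcription factor Crx, of the homeodomain family, drives photoreceptor genes in rods and cones and binds the sequence TAATCC, which reads GGATTA on the opposite strand. RefSeq promoter windows (GRCm38.p6, 250 bases before to 50 after the annotated start) were at hand for 47 of the 62 genes of the rod, cone and shared photoreceptor lists used below. The motif stood on either strand in 15 of these 47 windows (31.9%), against 752 of all 12807 windows (5.87%). By list it was found in 4 of 9 rod windows, 9 of 27 shared windows and 2 of 11 cone windows (18.2%). Outside these lists it was found in 4 of 24 amacrine windows, 2 of 12 ON bipolar windows, 1 of 9 windows of other bipolar genes, 2 of 18 Müller glia windows and 1 of 15 microglia windows, and in 0 of 9 windows of ganglion cell genes and 0 of 12 of endothelial genes. The share in cone windows was thus close to those in amacrine and ON bipolar windows (16.7% each). A match of 6 letters is a description of the sequence and shows no binding. The 250 bases before the start are shown for 5 genes with the motif and for a cone opsin gene without it, each read 5′ to 3′ on the strand of the gene with the motif in capitals.
Crx (chr7:15879956-15880205, minus strand): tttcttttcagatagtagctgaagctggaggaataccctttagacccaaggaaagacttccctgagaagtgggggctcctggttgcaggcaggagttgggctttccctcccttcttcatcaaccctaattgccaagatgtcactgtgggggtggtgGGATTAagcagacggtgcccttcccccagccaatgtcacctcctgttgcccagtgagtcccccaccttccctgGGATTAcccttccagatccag
Sag (chr1:87803430-87803679, plus strand): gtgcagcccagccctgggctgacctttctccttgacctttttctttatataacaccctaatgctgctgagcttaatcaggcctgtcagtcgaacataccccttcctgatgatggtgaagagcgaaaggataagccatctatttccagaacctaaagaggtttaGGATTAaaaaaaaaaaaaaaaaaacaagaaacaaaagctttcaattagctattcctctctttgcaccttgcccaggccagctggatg
Cngb1 (chr8:95306586-95306835, minus strand): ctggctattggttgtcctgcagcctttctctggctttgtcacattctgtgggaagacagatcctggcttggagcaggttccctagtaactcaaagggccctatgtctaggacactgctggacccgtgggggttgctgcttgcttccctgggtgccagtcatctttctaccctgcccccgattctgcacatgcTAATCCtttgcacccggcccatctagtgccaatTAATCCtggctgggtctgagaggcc
Rbp3 (chr14:33953753-33954002, plus strand): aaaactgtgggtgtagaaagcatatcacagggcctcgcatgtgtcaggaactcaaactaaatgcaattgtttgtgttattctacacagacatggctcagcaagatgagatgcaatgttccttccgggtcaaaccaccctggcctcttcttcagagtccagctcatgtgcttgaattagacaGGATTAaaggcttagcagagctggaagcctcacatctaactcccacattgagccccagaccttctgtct
Guca1a (chr17:47400607-47400856, minus strand): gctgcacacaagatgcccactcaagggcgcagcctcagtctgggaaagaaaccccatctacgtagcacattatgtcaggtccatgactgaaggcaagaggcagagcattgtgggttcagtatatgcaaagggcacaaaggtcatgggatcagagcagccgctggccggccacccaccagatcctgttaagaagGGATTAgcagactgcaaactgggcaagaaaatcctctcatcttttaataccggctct
Opn1sw (chr6:29380514-29380763, minus strand): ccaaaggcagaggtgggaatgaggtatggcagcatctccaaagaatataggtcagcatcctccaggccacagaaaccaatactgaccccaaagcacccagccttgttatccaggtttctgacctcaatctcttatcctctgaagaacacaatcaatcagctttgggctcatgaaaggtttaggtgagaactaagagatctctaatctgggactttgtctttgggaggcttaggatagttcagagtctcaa
Counted back from the annotated start, the motif began at -94 and -21 in Crx itself, at -87 in Sag (rod arrestin), at -58 and -25 in Cngb1 (a subunit of the rod channel), at -69 in Rbp3 (the retinoid carrier of the space around photoreceptors) and at -57 in Guca1a (the activator of guanylate cyclase). All 5 genes with the motif that are shown were detected in the 4 libraries, from 310.1 (Cngb1) to 4248 TPM (Guca1a), and so was Opn1sw, at 691 TPM. TPM is the read count of a gene divided by the length of its exons and scaled to a fixed sum over all genes in a library, so that levels of different genes can be compared.

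The libraries held 17429619, 23485031, 30974058 and 18750267 reads on genes in replicates 1 to 4. A read was found for 19891, 19923, 19934 and 19915 of the 19961 genes. Across genes the libraries were alike, with Pearson correlations of log2 values of 0.989 to 0.993 over the 6 pairs (Spearman 0.992 to 0.994); genes are not independent replicates. Counts differed between every pair by more than sampling noise, with chi-square per degree of freedom between 6.68 and 39.3, so no library was a copy of another. Protein-coding genes held 91.4% to 93.0% of reads. The 8 features listed as holding ribosomal RNA sequence took 2.14, 0.334, 0.210 and 2.81% of reads in replicates 1 to 4, highest in replicates 1 and 4. Gm26917, which lies beside CT010467.1 of this list on chromosome 17, was not counted among them and took 0.657% to 0.863%. At a level of at least 1 TPM stood 16923 genes, at least 10 TPM 9528, at least 100 TPM 1019 and at least 1000 TPM 51. Of the 15116 protein-coding genes, 13398, 8901, 963 and 35 reached these levels, and counts in the lists below are to be read beside these.

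Among the features with most reads were short nuclear RNAs and genes of rod phototransduction. Rn7sk, the RNA that holds back the elongation factor P-TEFb, took 1.69% to 2.06%, and Rpph1, the RNA of ribonuclease P, took 0.998% to 1.36%. Gnat1 (ENSMUSG00000034837, chromosome 9, 107674474 to 107679712, minus strand), the rod transducin alpha subunit, took 1.08, 1.17, 1.03 and 1.05% of reads in replicates 1 to 4. In normalized reads, the authors' scaled counts, Gnat1 stood at 233774, 247278, 210843 and 219966, and the 4 libraries lay within 1.17-fold of each other. It was followed by the nuclear long RNA Malat1 (0.793% to 1.06%) and by Gm26917 (0.657% to 0.863%). Prph2, the disc rim protein peripherin, took 0.560% to 0.599%, Sag, rod arrestin, 0.451% to 0.592%, and Gnb1, the beta subunit of rod transducin that is also used in other cells, 0.416% to 0.610%. Lower places among 15 such features were held by Lars2, Rbp3, the mitochondrially encoded mt-Co1, the glycolytic gene Aldoa, the rod phosphodiesterase subunit Pde6a, the glycolytic gene Pkm and CT010467.1, a feature that holds ribosomal RNA sequence. Lars2 encodes a mitochondrial leucyl-tRNA synthetase and its annotated exons hold ribosomal RNA sequence. It is itself 1 of the 8 features listed as holding such sequence. Lars2 stood at 128717, 805, 6197 and 180109.9 normalized reads in replicates 1 to 4, so that its place rested on replicates 1 and 4. These were the libraries with most reads in the ribosomal RNA list, a sum that includes Lars2.

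**Figure D1:**
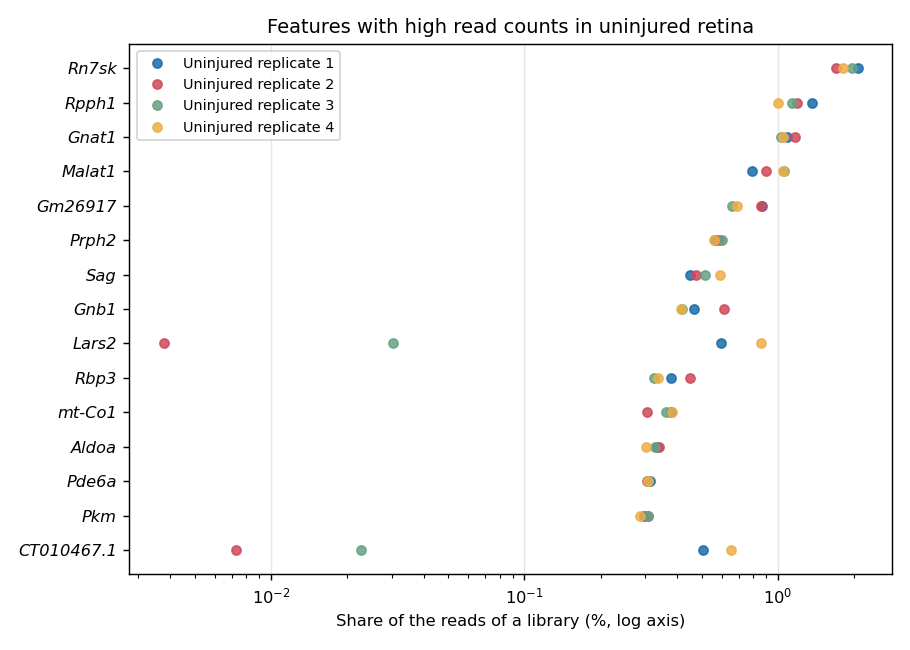
Share of the reads of each library (percent, log axis) for 15 features with high read counts, 1 point per library. Gnat1 lies between 1.03% and 1.17% in the 4 libraries, and Lars2 is spread from 0.00379% to 0.858%.

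The 10 highest features together held 13.4%, 13.0%, 12.7% and 13.0% of reads in replicates 1 to 4, and the 100 highest held 24.5% to 26.3%. Between 848 and 935 genes made up 50% of the reads, and between 6163 and 6308 made up 90%. Ranked per exon length among the protein-coding genes reported here, Gnat1 stood at 10589.7 ± 1129 TPM (mean ± SD, n = 4, as for all TPM values below). Its 4 libraries (9784 to 12219 TPM) did not overlap those of mt-Co1, a subunit of cytochrome oxidase (6812 ± 435 TPM). Next came Prph2 (5717), its partner Rom1 (5453), Guca1a (4248), Gnb1 (3336), Rcvrn (3319), Aldoa (3316) and the glial enzyme Glul (2224). Hist1h4c, a histone gene with near-identical copies and so an uncertain value (2132), mt-Nd1 (2096), Rbp3, Pde6g, Pde6a and Pdc completed these 15. Of the 15, 9 were members of the rod, cone or shared photoreceptor lists. Among the 100 highest so ranked the lists held 27, of which 9 were rod, 16 shared and 2 cone genes. Genes that are not protein-coding held 36.7% to 45.3% of the TPM scale, 24.3% to 29.3% of it in Rn7sk and Rpph1 alone. A TPM value of a protein-coding gene therefore depends on them: rescaled over protein-coding genes, Gnat1 stood at 17953 TPM, with the order of genes within a library the same. For the same reason values per library are given as normalized reads, and TPM is used to compare genes.

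The labelled tissue was checked on 5 genes that mark retinal cell types. Glul (ENSMUSG00000026473, chromosome 1, 153899944 to 153909723, plus strand), glutamine synthetase of Müller glia, stood at 52866, 54585, 52517 and 49914 normalized reads in replicates 1 to 4. Pax6 (ENSMUSG00000027168, chromosome 2, 105668900 to 105697364, plus strand), the homeodomain factor of amacrine, horizontal and ganglion cells, stood at 6689, 6159.5, 6759 and 6079. Gnat2 (ENSMUSG00000009108, chromosome 3, 108092789 to 108101432, plus strand), the cone transducin alpha subunit, stood at 3764, 3635, 3848 and 4022. All 3 were close in the 4 libraries. Grm6 (ENSMUSG00000000617, chromosome 11, 50850685 to 50866208, plus strand), the glutamate receptor of ON bipolar cells, stood at 1222, 1747, 1039 and 1197, with replicate 2 above the others. Pou4f1 (ENSMUSG00000048349, chromosome 14, 104461676 to 104467999, minus strand), a POU factor of ganglion cells, stood at 597, 619.6, 585 and 614, the narrowest of the 5 in relative terms, with a coefficient of variation (CV, SD over mean) of 2.64%. Counting noise alone gives a CV of 4.05% for a gene of similar level (Zfp609, mean 606 normalized reads), so Pou4f1 cannot be called steadier. Per length the order was Glul at 2224 ± 227 TPM, Gnat2 at 179 ± 13.5 TPM, Pax6 at 77.3 ± 7.45 TPM, Grm6 at 33.9 ± 9.55 TPM and Pou4f1 at 18.2 ± 1.51 TPM, and no neighbours in this order overlapped. All 5 markers were thus above the median of all 19961 genes, 8.94 TPM, and of the 15116 protein-coding genes, 14.3 TPM.

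Marker lists ranged from 3.98% of reads for genes shared by rods and cones to 0.000514% for cornea, iris and ciliary body. The 13 rod genes listed took 3.03, 3.16, 3.05 and 3.14% of reads in replicates 1 to 4, a mean of 3.09% ± 0.0666 (SD, n = 4). The 34 shared genes took 3.98% ± 0.0928. The 28 Müller glia genes took 0.693% ± 0.0119 and the 15 cone genes 0.230% ± 0.0118. The 14 ON bipolar genes took 0.171% ± 0.00411, the 28 measured amacrine genes 0.165% ± 0.00423 and the 21 ganglion cell genes 0.133% ± 0.00565. Lists of less than 0.1% were other bipolar genes (0.0421% ± 0.00142), endothelium (0.0433% ± 0.00197), ganglion cell subtypes (0.0367% ± 0.000918) and horizontal cells (0.0296% ± 0.00141). Microglia (0.00841% ± 0.000421), astrocytes (0.00768% ± 0.000685) and oligodendrocytes (0.00585% ± 0.000252) were lower still. Exact 95% counting intervals reached at most 1.25% of the value to either side for lists of at least 0.13% of reads, and up to 6.02% for the 3 lists of glia and microglia just named. The order of the lists rests on how many genes each list holds and how long they are, so it is not an order of cell numbers. In whole tissue, fewer cells of a type and less RNA per cell cannot be told apart.

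**Figure D2:**
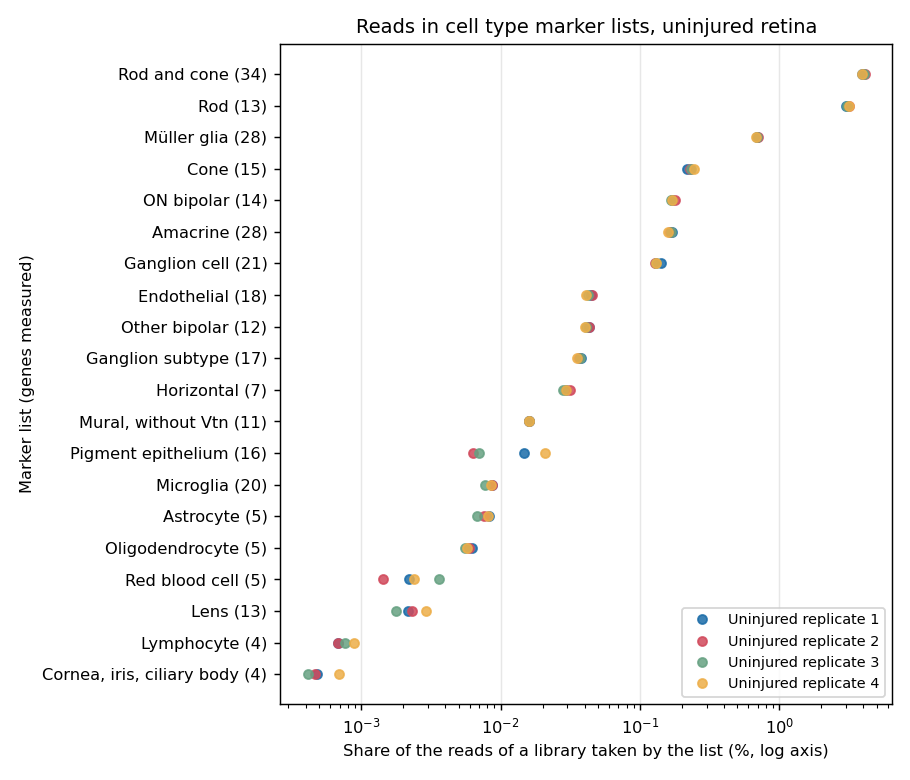
Share of reads (percent, log axis) taken by each marker list in each of the 4 libraries, with the number of measured genes in brackets. Neuronal and Müller glia lists overlap closely between libraries, while pigment epithelium runs from 0.00630% in replicate 2 to 0.0208% in replicate 4.

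All 13 rod genes listed stood above 100 TPM and 6 above 1000 TPM, with a median of 810.2 TPM. After Gnat1 came the phosphodiesterase: Pde6g, the inhibitory subunit, at 2027 ± 234 TPM, Pde6a at 1941 ± 108 TPM and Pde6b at 1724 ± 139 TPM, the catalytic pair. The ranges of these 3 and of Sag (1690.4 ± 207 TPM) overlapped from neighbour to neighbour. Pde6a stood at 67769.9, 64337, 62703 and 64267 normalized reads in replicates 1 to 4 and Pde6b at 60360.1, 57597, 62334 and 66231. The ratio of Pde6a to Pde6b per length was 1.13 ± 0.0831 with all exons merged and 0.939 with the longest transcript, so that which of the pair was higher depended on the length used. Sag stood at 97467, 100992, 105478 and 124240.3, highest in replicate 4. Nrl, the leucine zipper factor that sets rod fate, stood at 1199 ± 105 TPM, and its target Nr2e3, a nuclear receptor that represses cone genes in rods, at 810.2 ± 109 TPM. Gngt1 stood at 756 ± 56.1 TPM and the exchanger Slc24a1, which removes calcium from the rod outer segment, at 661 ± 107 TPM. Lowest were Cngb1 (310.1 ± 46.0 TPM) and Cnga1 (274 ± 16.2 TPM), the rod channel subunits, Reep6, an endoplasmic reticulum protein of rods (324 ± 80.4 TPM), and Esrrb, a nuclear receptor of rods (173 ± 40.4 TPM). Reep6 at 6106, 7372, 4318 and 5288 and Esrrb at 8251, 9259, 5934 and 6278 normalized reads were the rod genes with the widest spread, both highest in replicate 2 and lowest in replicate 3.

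Of the 15 cone genes, all were above 10 TPM and 6 above 100 TPM, with a median of 81.3 TPM. Opn1sw (ENSMUSG00000058831, chromosome 6, 29376671 to 29388468, minus strand), the short wavelength opsin, stood at 12080.5, 13078, 12006 and 13073 normalized reads in replicates 1 to 4. Opn1mw (ENSMUSG00000031394, chromosome X, 74127464 to 74150760, plus strand), the middle wavelength opsin, stood at 2063, 1846, 2019 and 2231. Per length Opn1sw was 3.78 ± 0.367 times Opn1mw and higher in all 4 libraries (3.17 times with the longest transcript); 15.5% of the Opn1sw exon length overlaps another gene. Gnb3, the cone transducin beta subunit, was at 601 ± 47.8 TPM, and its range overlapped that of Opn1sw (691 ± 66.5 TPM). Arr3, cone arrestin, stood at 3274, 3552, 4658 and 4822 normalized reads, lower in replicates 1 and 2 than in 3 and 4, with a CV of 19.1%, the widest of the cone list. Opn1mw and Gnat2 overlapped in TPM, as did Gngt2, the gamma subunit (111 ± 12.2 TPM), and Pde6c, the catalytic subunit (99.6 ± 9.42 TPM). The lowest cone genes were Cngb3 (14.3 ± 1.41 TPM) and Cnga3 (12.9 ± 0.661 TPM), the cone channel subunits, and Rxrg, a retinoid receptor (10.3 ± 1.11 TPM).

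At each of 9 steps of phototransduction the rod gene was higher than its cone counterpart in all 4 libraries. The size of the gap differed by step. It was largest for the transducin alpha subunit, where Gnat1 stood 5.88 ± 0.15 log2 units above Gnat2 (6.00 with the longest transcript as length). For the inhibitory phosphodiesterase subunits (Pde6g over Pde6h) it was 5.43 ± 0.20 and for the catalytic ones (Pde6a and Pde6b over Pde6c) 5.20 ± 0.07, with overlapping libraries. The exchangers (Slc24a1 over Slc24a2) differed by 4.74 ± 0.17, the beta channel subunits by 4.43 ± 0.18 and the alpha channel subunits by 4.41 ± 0.06, again with overlap from neighbour to neighbour. With the longest transcript as length the channel gaps were wider, at 5.03 for beta and 5.47 for alpha, so that alpha stood above both phosphodiesterase steps (5.33 for catalytic and 5.07 for inhibitory); the order of these middle steps depended on the length used. Smaller gaps were found for arrestin (Sag over Arr3, 2.81 ± 0.17), transducin gamma (Gngt1 over Gngt2, 2.78 ± 0.17) and transducin beta (Gnb1 over Gnb3, 2.45 ± 0.29), and with the longest transcript too these 3 were the smallest, at 3.25, 2.78 and 2.38. Gnb1 and Slc24a2 are used by other neurons as well, and Gnb3 also by ON bipolar cells. The median over the 9 steps was 4.48 ± 0.13, and with the longest transcript as length it was 5.03.

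**Figure D3:**
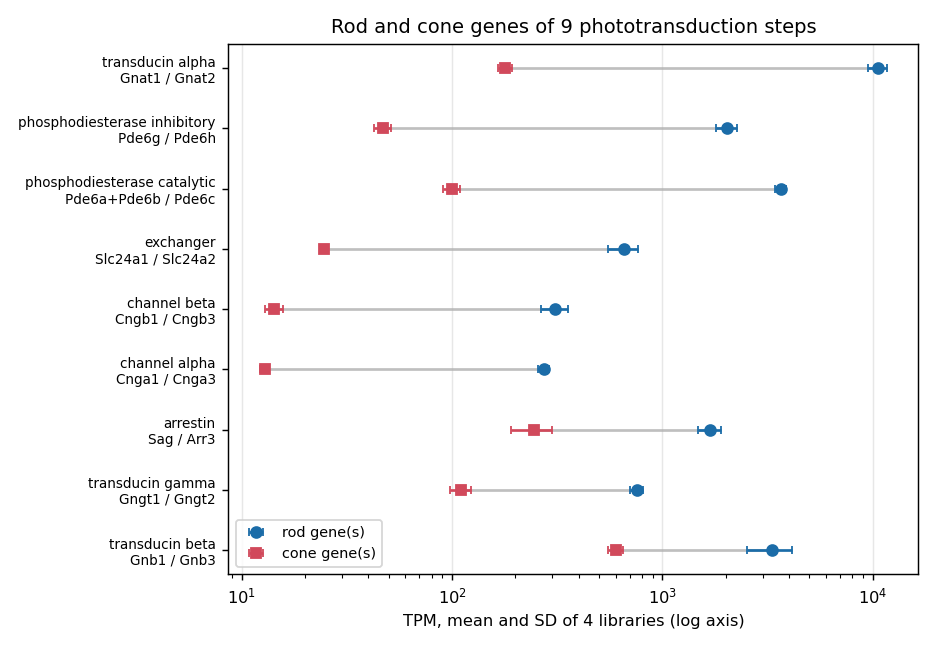
TPM (log axis) of the rod gene or genes (circles) and the cone gene or genes (squares) at 9 phototransduction steps, with mean and SD of 4 libraries, ordered by their ratio. The rod point lies to the right at every step, from a log2 ratio of 5.88 for transducin alpha to 2.45 for transducin beta.

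Genes used by both kinds of photoreceptor were high as a group: all 34 listed stood above 100 TPM and 10 above 1000 TPM, with a median of 410.3 TPM. Prph2 and Rom1, which shape the disc rims together, stood at 5717 ± 542 TPM and 5453 ± 482 TPM with overlapping ranges. Compared within each library, Prph2 was higher in all 4, with a ratio of 1.05 ± 0.0372 (1.18 with the longest transcript). Guca1a, which activates guanylate cyclase when calcium falls, stood at 4248 ± 321 TPM, and its relative Guca1b at 1063 ± 183 TPM. The cyclases themselves were lower: Gucy2e at 257 ± 32.8 TPM and Gucy2f at 176 ± 18.6 TPM, a ratio of 1.46 ± 0.0535. Rcvrn (recoverin), the calcium sensor that inhibits the photoreceptor kinase Grk1, stood at 3319 ± 442 TPM, and Grk1 at 650.2 ± 45.5 TPM. Grk1 was among the steadiest, at 41192, 40387, 40213 and 40645 normalized reads in replicates 1 to 4. Pdc (phosducin), which binds transducin beta and gamma subunits, and Unc119, which carries lipid-modified proteins such as transducin alpha, were at 1893 ± 107 TPM and 1854 ± 184 TPM, and overlapped. Rgs9 and its anchor Rgs9bp, which speed the shut-off of transducin, were close at 311 ± 26.6 TPM and 306 ± 51.9 TPM. The lowest of the list were Impg1 (120.0 ± 16.2 TPM), a proteoglycan of the matrix around photoreceptors, and Samd7 (107 ± 13.2 TPM), a repressor that acts with Crx. Rbp3 and Cdhr1, a cadherin of the outer segment base, had the widest spread, both highest in replicate 2. Rbp3 stood at 81943, 94963, 66370.4 and 70624 and Cdhr1 at 15001, 17253, 12399.8 and 12294 normalized reads.

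The visual cycle, which rebuilds the chromophore 11-cis-retinal, is divided between photoreceptors, Müller glia and the pigment epithelium behind the retina. Genes of the retinal cells were high. Besides Rbp3 these were Abca4, which moves retinoid out of the disc (501 ± 56.9 TPM), Rlbp1, the retinal-binding protein of Müller glia and pigment epithelium (404 ± 40.3 TPM), and the photoreceptor retinol dehydrogenases Rdh12 (329 ± 44.7 TPM) and Rdh8 (234 ± 22.2 TPM). Dhrs3, a retinal reductase, stood at 93.3 ± 15.8 TPM. Genes of the pigment epithelium were low and uneven. Rpe65 (ENSMUSG00000028174, chromosome 3, 159599175 to 159625321, plus strand), the isomerase, stood at 138, 34.3, 48.3 and 185 normalized reads in replicates 1 to 4, and Lrat, which makes retinyl esters, at 136, 29.8, 41.7 and 284. Replicates 1 and 4 were above 2 and 3 for both. The lowest of the 15 genes was Rbp4, the serum retinol carrier, at 0.861 ± 0.329 TPM.

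Photoreceptors and bipolar cells release glutamate at ribbon synapses, and all 24 synaptic genes listed were above 10 TPM, with 16 above 100 TPM. Over all 15116 protein-coding genes the counts were 8901 and 963. Cplx4, a complexin of ribbon synapses, was the highest at 969.7 ± 75.4 TPM, followed by Slc17a7, the vesicular glutamate transporter VGLUT1 of photoreceptors and bipolar cells, at 754 ± 89.4 TPM. Slc17a7 stood 25.3 ± 3.29 times above Slc17a6, the transporter VGLUT2 of ganglion cells. Stx3, the syntaxin of ribbon synapses, was 32.9 ± 2.33 times Stx1a (49.8 times with the longest transcript as length), the syntaxin of conventional synapses and the lowest of the list at 13.9 ± 0.856 TPM. The complexins fell in the order Cplx4, Cplx3 (297 ± 12.0 TPM), Cplx1 (93.8 ± 9.95 TPM) and Cplx2 (80.4 ± 13.6 TPM), and only the last pair overlapped. Stx3 was steady, at 18611, 18142, 18767 and 18452 normalized reads in replicates 1 to 4. Snap25 stood at 533 ± 31.6 TPM and the vesicle protein Sv2a at 287 ± 36.5 TPM; Bsn, the very long scaffold bassoon, was low per length at 20.7 ± 3.82 TPM.

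Glycolysis, on which photoreceptors rely heavily, was represented by 23 genes, of which 17 were above 100 TPM and 6 among the 100 highest protein-coding genes. Aldoa led at 3316 ± 335 TPM, 5.30 ± 0.147 times Aldoc (8.50 with the longest transcript), followed by Pkm, pyruvate kinase (1774 ± 172 TPM), and Bsg, basigin, the partner of the lactate carriers (1103 ± 117 TPM). Tpi1 (720.5 ± 67.7 TPM), Ldha (712 ± 95.8 TPM) and Aldoc (625 ± 50.1 TPM) followed and overlapped from neighbour to neighbour. Ldha, the lactate dehydrogenase subunit that favours lactate, was 3.66 ± 0.263 times Ldhb (5.55 with the longest transcript). The hexokinases Hk1 (304 ± 50.3 TPM) and Hk2 (291 ± 44.6 TPM) could not be ordered, with a ratio of 1.05 ± 0.0357 and of 1.93 with the longest transcript. Slc2a1, the glucose carrier GLUT1, stood 3.75 ± 0.278 times above Slc2a3, and the lactate carrier Slc16a1 5.43 ± 0.865 times above Slc16a3. Gapdh (69.8 TPM), Pgam1 (48.4 TPM) and Pgk1 (34.4 TPM) have many near-identical pseudogenes, and how reads of more than 1 place were counted is not given, so their values are uncertain. Pgk1 and Slc16a7, another lactate carrier (2.07 ± 0.277 TPM), were the lowest.

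The sodium potassium pump keeps up the ion gradients behind the dark current of rods. Among its beta subunits, Atp1b2 (216 ± 31.6 TPM) led, with 6393, 7176, 5398 and 6068 normalized reads in replicates 1 to 4, then Atp1b1 (160.4 ± 18.8 TPM) and Atp1b3 (69.7 ± 4.77 TPM). The ranges of the last pair did not overlap, and Atp1b2 was 1.34 ± 0.0742 times Atp1b1, higher in all 4 libraries. All 3 were lowest in replicate 3, as were 27.7% of protein-coding genes.

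ON bipolar cells, which invert the photoreceptor signal through Grm6, were marked by 14 genes with a median of 70.3 TPM. Highest were Pcp2 (130.1 ± 6.52 TPM), a Purkinje and bipolar cell protein, Sebox (122 ± 6.38 TPM), a homeodomain gene, Gng13 (119.8 ± 17.2 TPM), the gamma subunit of the ON bipolar G protein, and Prkca (111 ± 14.0 TPM), protein kinase C alpha of rod bipolar cells; their ranges overlapped from neighbour to neighbour. Pcp2 and Gng13 share over 50% of their exon length with other genes, so their values are uncertain. The transduction channel Trpm1 stood at 9010.1, 9042, 8103 and 8726 normalized reads in replicates 1 to 4 (83.1 ± 6.08 TPM), and its partner Gpr179 at 5579, 5936, 5263 and 5502 (82.2 ± 8.05 TPM). Their TPM ranges overlapped, while Grm6, the receptor above them in the pathway, was lower at 33.9 ± 9.55 TPM. Lowest was Nyx, nyctalopin (25.2 ± 1.38 TPM). Among genes of all bipolar or OFF bipolar cells, Scgn, secretagogin (108 ± 9.50 TPM), and Cabp5, a calcium-binding protein (90 ± 11.1 TPM), stood above the rest of the 12 listed, with overlapping ranges. Then came Grik1, a kainate receptor of OFF bipolar cells (32.3 ± 3.64 TPM), Lhx4 (30.4 ± 0.724 TPM) and Vsx1 (24.7 ± 1.14 TPM), both homeodomain factors. Fezf2, a zinc finger factor (5.48 ± 0.484 TPM), and Neto1, an accessory subunit of glutamate receptors (2.27 ± 0.240 TPM), were lowest.

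Horizontal cells were marked by 7 genes. The highest, Prox1 (62.1 ± 6.14 TPM) and Calb1 (39.5 ± 2.87 TPM), are also used by other retinal cells. Megf11 stood at 10.0 ± 1.36 TPM and Gja10, the horizontal cell connexin, at 3.17 ± 0.580 TPM. The transcription factors Onecut2 (1.95 ± 0.109 TPM), Lhx1 (1.92 ± 0.679 TPM) and Onecut1 (1.75 ± 0.169 TPM) were lowest, with overlapping ranges.

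Amacrine cells, the inhibitory interneurons, were marked by 28 measured genes, and Slc6a3 was not analysed here. Of the 28, 2 were above 100 TPM and 19 above 10 TPM, with a median of 14.4 TPM. The list thus stood near all 15116 protein-coding genes. Of those, 963 were above 100 TPM and 8901 above 10 TPM, with a median of 14.3 TPM. Calb2, calretinin, which is also found in ganglion cells, stood highest at 449 ± 31.6 TPM, with 5777, 5470.4, 5590.0 and 5445 normalized reads in replicates 1 to 4. Genes of both inhibitory transmitters were lower. For GABA, the synthesis enzyme Gad1 stood at 86.0 ± 7.09 TPM, 4.33 ± 0.170 times Gad2 (8.98 times with the longest transcript). For glycine, the carrier Slc6a9 stood at 78.7 ± 6.57 TPM. Slc32a1, which loads both into vesicles, stood at 1057, 1493, 828 and 978 normalized reads, with replicate 2 the highest, as for Grm6. Gjd2, connexin 36, which couples the AII amacrine cells, stood at 127 ± 12.7 TPM and Pax6 at 77.3 ± 7.45 TPM. Genes of rare amacrine types were low: Chat and Slc5a7 of the acetylcholine-releasing starburst cells stood at 10.0 ± 0.761 TPM and 9.74 ± 0.904 TPM, Vip at 8.83 ± 0.951 TPM, Slc17a8 at 7.25 ± 0.520 TPM, and Th, the dopamine enzyme, at 2.93 ± 0.560 TPM. Nos1 (2.44 ± 0.375 TPM) and Neurod6 (1.79 ± 0.423 TPM) were the lowest, and the libraries of Th, Nos1 and Neurod6 overlapped from neighbour to neighbour.

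Müller glia genes had a median of 57.3 TPM, with 8 of 28 above 100 TPM. Glul was the only one above 1000 TPM, followed by Apoe, the lipid carrier (903 ± 36.8 TPM), Dkk3, a secreted Wnt pathway protein (746 ± 44.4 TPM), Clu, clusterin (511 ± 72.5 TPM), Rlbp1 (404 ± 40.3 TPM) and Spc25 (128 ± 10.8 TPM). Apart from Clu and Rlbp1, whose ranges overlapped, each of the 6 was separated from the next. Rlbp1 stood at 8210.0, 8751, 8442 and 8475 normalized reads in replicates 1 to 4 and varied little. The glutamate carrier Slc1a3 stood at 75.7 ± 5.89 TPM, the water channel Aqp4 at 78.0 ± 10.9 TPM and the potassium channel Kcnj10 at 14.0 ± 1.84 TPM. Vim, the intermediate filament vimentin, stood at 99.3 ± 3.48 TPM, above Gfap (21.5 ± 3.43 TPM), the filament of astrocytes that Müller glia take up after damage. Gfap stood at 743, 674, 459.6 and 721 normalized reads in replicates 1 to 4, with replicate 3 below the others. Nfia (6.77 ± 0.979 TPM) and Sox9 (4.23 ± 0.378 TPM), both factors of glial fate, were the lowest of the list.

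Ganglion cells, whose axons form the optic nerve, were represented by 21 genes with a median of 25.5 TPM. Of these, 6 stood above 100 TPM and 16 above 10 TPM, against 963 and 8901 of 15116 protein-coding genes. The highest were genes of the axon and its skeleton. Sncg, gamma-synuclein, stood at 1927, 1689, 1706 and 1649.8 normalized reads in replicates 1 to 4 (287 ± 18.2 TPM). Nefl, the light neurofilament, stood at 6989, 6210.1, 6589 and 6793 (276 ± 12.5 TPM), and their TPM ranges overlapped. Tubb3, a neuronal tubulin, followed at 252 ± 13.8 TPM, then Tppp3, a protein that binds tubulin (148 ± 10.6 TPM), Chrna6, a nicotinic receptor subunit (126 ± 4.97 TPM), and Thy1, a surface protein (101 ± 12.6 TPM). Among the neurofilaments the order was Nefl, Nefh (59.5 ± 2.65 TPM) and Nefm (25.5 ± 1.59 TPM), with Nefl 10.8 ± 0.914 times Nefm (6.90 with the longest transcript). Axon growth protein Gap43 stood at 623, 457, 490.1 and 507 and Slc17a6 at 1322, 1063, 1091 and 1132 normalized reads, both highest in replicate 1. Of the list, 16 of the 21 genes were highest in replicate 1, as were 27.9% of all protein-coding genes. Replicate 1 also had high ribosomal RNA; its part in this was not tested. The POU factors were low, Pou4f1 at 18.2 ± 1.51 TPM, Pou4f3 at 7.69 ± 0.854 TPM and Pou4f2 at 6.51 ± 1.05 TPM, with Pou4f1 2.82 ± 0.323 times Pou4f2. Rbpms, the RNA-binding protein used to count ganglion cells, stood at 8.13 ± 0.454 TPM.

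Genes of ganglion cell subtypes were lower, with a median of 7.10 TPM over 17 genes and 4 of them below 1 TPM. Cartpt, a neuropeptide of direction-selective ganglion cells, was the highest at 154 ± 11.8 TPM, with 1471, 1282, 1457 and 1394 normalized reads in replicates 1 to 4. Jam2, of a direction-selective type (58.4 ± 6.16 TPM), Pvalb, parvalbumin (36.4 ± 3.72 TPM), Kcng4, of alpha cells (26.0 ± 0.838 TPM), Neurod2 (22.8 ± 3.01 TPM) and Spp1, osteopontin, of alpha cells (12.6 ± 1.88 TPM) followed. Opn4, melanopsin of the intrinsically light-sensitive ganglion cells, stood at 102, 74.1, 80.8 and 75.0 normalized reads, with replicate 1 the highest, and at 3.92 ± 0.428 TPM. Eomes, a factor of the same cells, stood at 5.23 ± 0.497 TPM. Tbx20 (0.614 ± 0.125 TPM) and Foxp2 (0.534 ± 0.0532 TPM) were the lowest and overlapped.

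Non-neuronal cells left small but measurable signals. Of the 5 astrocyte genes measured (Pax2 was not analysed here), Gfap, S100b (19.2 ± 1.17 TPM) and Aldh1l1 (11.7 ± 0.714 TPM) were above 10 TPM while Pdgfra, a growth factor receptor (4.91 ± 0.229 TPM), and Gja1, connexin 43 (0.555 ± 0.126 TPM), were lower. Of 5 oligodendrocyte genes, Cnp (16.2 ± 0.997 TPM) and Mbp (13.0 ± 0.75 TPM), which other cells also express, were above 10 TPM. Of the genes of mature myelin, Cldn11 stood at 0.510 ± 0.131 TPM, and Mog stood at 6.20, 7.23, 10.6 and 10.1 and Mag at 14.9, 13.5, 10.6 and 10.1 normalized reads. In the mouse, ganglion cell axons carry no myelin inside the retina. Microglia genes had a median of 3.75 TPM, with 4 of the 20 listed above 10 TPM, against 8901 of 15116 protein-coding genes. The 4 were Ctss (26.7 ± 3.07 TPM) and the complement genes C1qa (19.6 ± 1.58 TPM), C1qb (16 ± 2.19 TPM) and C1qc (10.8 ± 0.993 TPM). The microglial receptors P2ry12 (86.8, 77.7, 80.8 and 75.0) and Cx3cr1 (133, 127, 112 and 115 normalized reads) were detected in every library. Olfml3 stood at 6.73 ± 0.721 TPM, and Itgam (0.293 ± 0.101 TPM, 68.7% of its exon length shared with another gene) and Ptprc (0.190 ± 0.0313 TPM) were lowest. Lymphocyte genes were low: 4 of the 9 listed were measured, and all but Jchain (7.63 ± 1.19 TPM), which joins antibody chains, were below 2 TPM. These were Igkc (1.69 ± 0.546 TPM), Cd79a (0.754 ± 0.385 TPM) and Cd4 (0.282 ± 0.0452 TPM), and in replicate 1 Cd4 had 9.92 normalized reads.

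Vascular cells were represented by 18 endothelial and 12 mural genes. Kdr, a receptor of vascular endothelial growth factor that horizontal cells and other neurons can also express, was the highest endothelial gene at 68.4 ± 6.90 TPM, with 4697, 4660.3, 4140.3 and 4061 normalized reads in replicates 1 to 4. It was followed by Cldn5, a tight junction protein (44.1 ± 5.56 TPM), Flt1, another such receptor (19.5 ± 2.34 TPM), Esam (16.7 ± 2.09 TPM), Ly6c1 (9.70 ± 0.919 TPM) and Egfl7 (7.58 ± 0.518 TPM), and Emcn (1.39 ± 0.228 TPM) and Erg (1.87 ± 0.496 TPM) were lowest. Pecam1 stood at 7.13 ± 0.392 TPM. Of the mural list, Vtn, vitronectin, alone stood at 22102, 21654, 21692 and 22327 normalized reads in replicates 1 to 4 (1520.1 ± 102 TPM, place 23 among protein-coding genes). Vtn held most of the list: the share of reads of the list was 0.120% ± 0.00220 with Vtn and 0.0159% ± 0.0000624 without. In whole tissue the cell type that gave the Vtn reads cannot be told, so its level is not read as that of mural cells. The pericyte genes Rgs5 (59.6 ± 4.38 TPM) and Pdgfrb (12.0 ± 1.29 TPM) came next, with Tagln (6.30), Acta2 (5.32) and Kcnj8 (5.13 TPM) after them and Cspg4 (1.43 ± 0.125 TPM) and Des (1.34 ± 0.157 TPM) lowest.

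Transcription factors that set retinal cell identity spanned a wide range, with a median of 30.4 TPM over 35 genes, 6 of them above 100 TPM. The photoreceptor factors led: Nrl (1199 ± 105 TPM) and Crx (1075 ± 51.0 TPM), with overlapping ranges, and Nr2e3 (810.2 ± 109 TPM). Compared within each library, Nrl was higher than Crx in all 4, with a ratio of 1.11 ± 0.0461 (1.18 with the longest transcript). Nrl stood at 49636, 46358, 50611 and 47346 normalized reads in replicates 1 to 4 and Crx (ENSMUSG00000041578, chromosome 7, 15865947 to 15879968, minus strand) at 25736, 23149.7, 23861 and 24061, both steady. Neurod1 (251 ± 21.9 TPM), Otx2 (134 ± 11.8 TPM) and Rorb (132 ± 14.1 TPM) followed, and Crx was 8.03 ± 0.324 times Otx2, its activator (5.34 with the longest transcript). In the middle stood Mef2d, Pax6, Prox1 and Isl1, from 93.9 down to 59.1 TPM, with each overlapping the next. Isl1, which marks ON bipolar, amacrine and ganglion cells, did not overlap the next factor, Bhlhe23 of rod bipolar cells (49.2 ± 4.41 TPM). From Bhlhe23 through Sox2 and Rax of Müller glia, Mef2c, Six6 and Thrb, the thyroid hormone receptor of cones, to Tfap2b of amacrine cells (36.0 ± 3.98 TPM), neighbours overlapped again. Meis2, Sox8, Vsx1, Lhx2 and Pou4f1 followed, from 30.4 to 18.2 TPM. Nfix, Six3, Isl2 and Rxrg stood between 12.9 and 10.3 TPM, and Pou4f3, Nfib, Nfia and Pou4f2 between 7.69 and 6.51 TPM. Sox9 (4.23 ± 0.378 TPM) and Tfap2a (3.95 ± 0.626 TPM) overlapped. Onecut2, Lhx1 and Onecut1 closed the list.

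**Figure D4:**
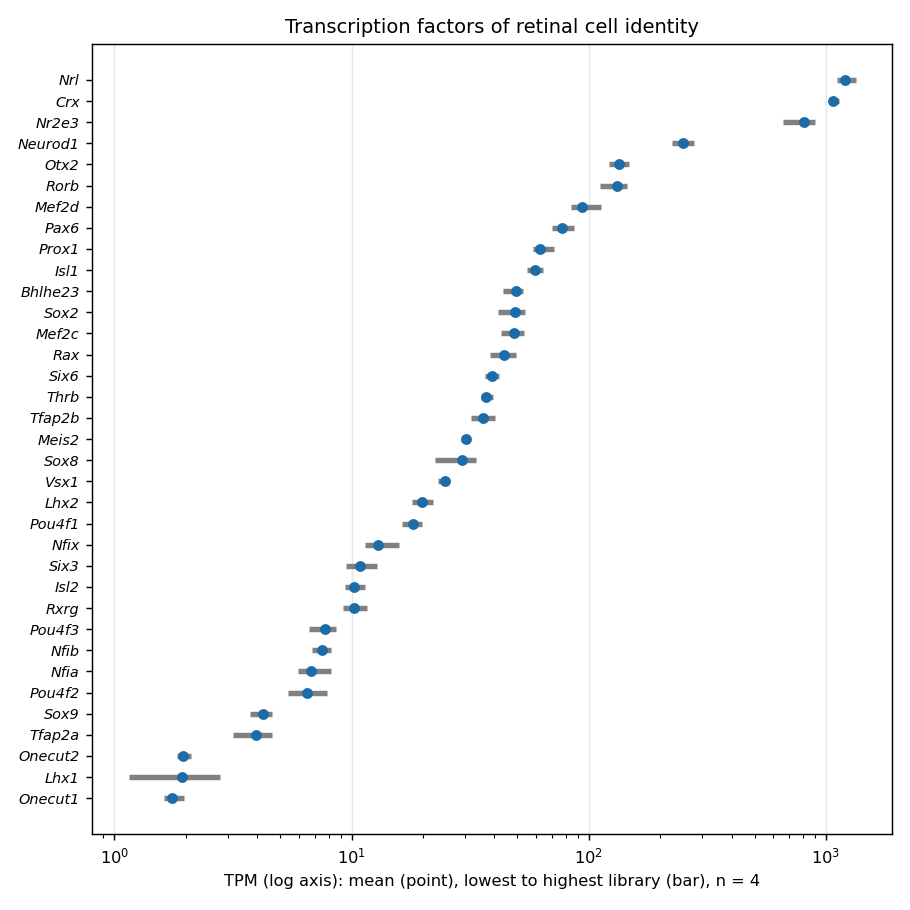
TPM (log axis) of 35 transcription factors, with the mean as a point and the lowest to highest of 4 libraries as a bar. Nrl, Crx and Nr2e3 have means of 1199, 1075 and 810.2 TPM, and the means of Onecut2, Lhx1 and Onecut1 lie from 1.95 to 1.75 TPM.

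Gap junction genes were led by Gjd2 at 127 ± 12.7 TPM, with 2727, 2446, 2762 and 2455 normalized reads in replicates 1 to 4. Panx2, a pannexin, came next at 16.9 ± 3.18 TPM, and the ratio of Gjd2 to it was 7.70 ± 1.70. Panx1 (4.26 ± 0.433 TPM), Gjc1 (3.63 ± 0.331 TPM) and Gja10 overlapped from neighbour to neighbour. Gja4 (1.87 ± 0.247 TPM), Gjb1 (0.624 ± 0.253 TPM), Gja1 and Gja5 (0.319 ± 0.0438 TPM), known from vessels or glia, were lower. Gjb2, Gjb6 and Gjc3 were not analysed here.

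The retina holds its own clock, and 16 of 17 clock genes stood above 10 TPM, against 8901 of 15116 protein-coding genes. The output factor Tef (137 ± 12.5 TPM), Rorb, Nr1d2 (111 ± 11.5 TPM), Dbp (96.7 ± 4.98 TPM), Nr1d1 (82.8 ± 7.97 TPM) and Rora (70.7 ± 4.31 TPM) were the highest. Clock stood at 4456, 4393, 4358 and 4425 normalized reads in replicates 1 to 4. Dbp, whose level swings over the day in many tissues, stood at 2098, 1959, 1944 and 2254. Per1, which responds to light and activity, stood at 1891, 1964, 1669 and 1142, lowest in replicate 4. Ciart (16.5 ± 0.506 TPM) and Npas2 (1.28 ± 0.221 TPM) were lowest. The labels give no hour of dissection.

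Between libraries, 11383 protein-coding genes with a mean of at least 100 normalized reads had a median CV of 6.34%. A CV above 20% was found for 181 of them and above 50% for 9. The common biological CV from edgeR, the part beyond counting noise, was 8.81%, and by level it was 14.0% at 10 normalized reads, 10.1% at 100, 7.17% at 1000 and 9.60% at 10000. Genes of the rod list had a median CV of 8.31%, cone 5.35%, Müller glia 5.75% and ganglion cell 8.33%. Low CVs were found for Ppp4r1, Kcmf1, Pes1, Ranbp3, Pi4kb, Pvr, Slc25a44, Tubgcp3, Mbd2 and Gapvd1, between 0.165% and 0.504%. Ppp4r1, a phosphatase subunit, stood at 1071, 1070.2, 1073 and 1069 normalized reads in replicates 1 to 4. Counting noise alone gives Ppp4r1 a CV of 3.03%, so none of the 10 can be called steadier than the rest from 4 libraries.

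The 10 genes with the highest CV fell mostly into 2 named groups, pigment epithelium (Lrat, Rpe65, Rgr, Ttr and Rdh5) and activity-induced genes (Nr4a3, Egr1 and Fos), beside Lars2 and Nhsl1. Of 18 immediate early genes, which neurons switch on within minutes of stimulation, 14 were lowest in replicate 4, against 25.9% of protein-coding genes. Fos (ENSMUSG00000021250, chromosome 12, 85473890 to 85477273, plus strand) stood at 1626, 1179, 1111 and 364 normalized reads in replicates 1 to 4, Egr1 at 454, 354, 299 and 61.6 and Nr4a1, an orphan nuclear receptor, at 1017, 844, 646 and 256. Nr4a3, of the same family, stood at 263, 225, 146 and 31.4. In each of them replicate 4 was far below the other 3. Others of the list varied less: Jund stood at 1915, 1874, 1901 and 1685 and Jun at 925, 956, 758 and 825 (52.6% of the exon length of Jund is shared with another gene). Btg2 (130 ± 28.5 TPM), Junb (50.1 ± 15.6 TPM) and Jund (156 ± 17.0 TPM) were among the highest of the list, and Egr2 (0.553 ± 0.108 TPM) and Egr3 (0.370 ± 0.163 TPM) the lowest. Summed over the list, replicate 4 held 0.0337% of reads and the others 0.0550% to 0.0573%. Nhsl1 stood at 89.3, 199.6, 92.1 and 70.6, highest in replicate 2. Of the 100 most variable genes reported here, 35 had replicate 2 as the library farthest from the rest and above them, and 23 had replicate 4 as the farthest and below. The share by this measure over all genes was not computed. Of protein-coding genes with a mean of at least 100 normalized reads, 30.9% were highest in replicate 2 and 26.8% lowest in replicate 4. The counts are therefore not read as a trait of the variable genes.

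Pigment epithelium adheres to the retina and is parted from it at dissection. Its 16 genes took 0.0148, 0.00630, 0.00701 and 0.0208% of reads in replicates 1 to 4. Both replicates 1 and 4 were above both 2 and 3 in 13 of 16, against 13.3% of protein-coding genes. Ttr, transthyretin, stood at 1082, 365, 397 and 1496 normalized reads in replicates 1 to 4, Rgr, an opsin of this tissue, at 929, 266, 292 and 1186 and Rdh5, a retinol dehydrogenase, at 184, 112, 128 and 324. The pigment enzymes Dct (105, 58.7, 78.1 and 169) and Tyr (32.3, 14.5, 15.9 and 40.3) followed the same order of libraries. Mitf, Kcnj13 (3.93 ± 1.85 TPM) and Stra6 (3.63 ± 1.18 TPM) were low, and Slc45a2 (0.293 ± 0.0619 TPM) and Mlana (0.174 ± 0.138 TPM) lowest. All 8 listed ribosomal RNA features also had replicates 1 and 4 above 2 and 3. Gm26917 lies beside CT010467.1 on chromosome 17 but was listed with the nuclear long RNAs. It did not follow this order, at 186673, 181512, 134741 and 145282 normalized reads in replicates 1 to 4. Gm15564 stood at 75561, 437, 3855 and 97033, CT010467.1 at 109447, 1543, 4663 and 136602, Mir6236 at 54695, 371, 2958 and 74669, Gm25732 at 5983, 51.5, 378 and 7583 and Gm23935 at 1562, 153, 207 and 2269 normalized reads. The mitochondrial mt-Rnr2 stood at 71180.2, 62472, 23255 and 72899 and mt-Rnr1 at 16331, 5038, 1571 and 17938. Whether ribosomal RNA has a part in the pigment epithelium values was not tested. Replicates 1 and 4 were above 2 and 3 in 0 of the 13 rod genes listed and in 2 of 13 lens genes. Beside the 13.3% of protein-coding genes, neither count stands apart in lists of 13.

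**Figure D5:**
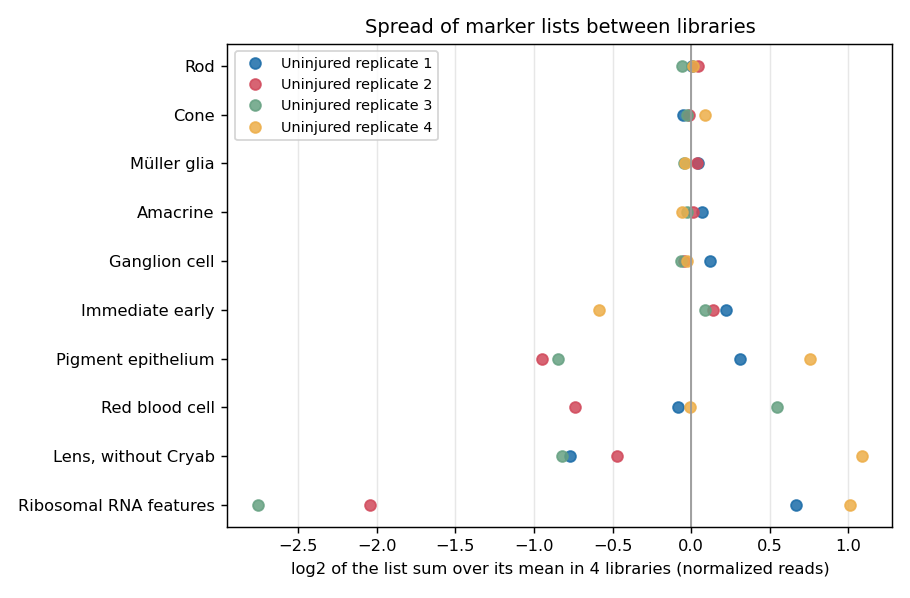
Log2 of the summed normalized reads of each list over its mean in the 4 libraries, 1 point per library. Rod, cone, Müller glia, amacrine and ganglion cell sums stay near 0, immediate early genes are low in replicate 4, and pigment epithelium and ribosomal RNA features are high in replicates 1 and 4.

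Lens genes were barely detected. Of 13 measured, Cryab, a small heat shock protein also made in the retina, stood at 33.3 ± 4.63 TPM, and the means of the other 12 were at most 1.48 TPM. Of the 13, 10 were highest in replicate 4, against 21.5% of protein-coding genes. Fewer than 10 reads in at least 1 library were found for 10 of the 13. The median of the list was 1.12 TPM against 14.3 TPM for protein-coding genes, so the 21.5% is not matched in level. Cryaa stood at 4.96, 12.6, 3.97 and 68.3, and Crybb2 at 0, 7.23, 5.30 and 57.1 normalized reads; the 0 in replicate 1 allows up to 3 reads of 17429619. Crybb3 (1.34 ± 0.499 TPM), Crybb1 (1.32 ± 0.382 TPM) and Bfsp1 (1.15 ± 0.386 TPM) were alike, and Crygb (0.172 ± 0.226 TPM) and Crygc (0.0985 ± 0.114 TPM) lowest. Genes of cornea, iris and ciliary body were also low, with Foxc1 at 1.59 ± 0.241 TPM, Optc at 1.51 ± 0.405 TPM, Myoc at 0.400 ± 0.181 TPM and Krt15 at 2.48, 2.71, 5.30 and 23.5 normalized reads. Of the red blood cell genes, Hbb-bs, the main adult beta globin, stood at 253, 129, 412 and 253, Alas2 at 120.3, 107, 129.8 and 141 and Hba-a1 and Hba-a2, near-identical copies with uncertain values, at 47.1, 24.4, 93.4 and 42.6 and 29.8, 21.7, 59.6 and 43.7. Hbb-bt, another adult beta globin, stood at 24.8, 20.8, 42.4 and 21.3. Of the 5, 4 were highest in replicate 3, against 21.2% of protein-coding genes, and all 5 lowest in replicate 2, against 24.6%.

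Among other non-coding RNAs, Rn7sk stood at 446022, 359215, 402553 and 380514 normalized reads in replicates 1 to 4, Rpph1 at 294949, 252911, 232250.2 and 209688 and Rmrp, the RNA of another ribonuclease, at 27543, 29147, 28368 and 18847. Rny3 (64.1 ± 30.5 TPM), Rny1 (32.6 ± 15.5 TPM) and Terc, the telomerase RNA (8.21 ± 2.49 TPM), were far lower. All are short, and Rpph1 and Rmrp overlap other genes over 73.0% and 100% of their length. Malat1 stood at 171371, 189395, 216894 and 219338, Gm26917 at 186673, 181512, 134741 and 145282 and Meg3, an imprinted RNA of neurons, at 7466, 7793, 9036 and 10085. Malat1 and Meg3 were lowest in replicate 1, and Gm26917 was highest there. Snhg11 (155 ± 20.1 TPM), Rian (26.0 ± 3.76 TPM) and Miat (15.5 ± 3.33 TPM) were lower, with Mirg (12.1 ± 3.22 TPM) and Neat1 (2.96 ± 0.501 TPM) last. Xist (ENSMUSG00000086503, chromosome X, 103460366 to 103483254, minus strand), the RNA of the inactive X chromosome, stood at 15561, 16102, 17753 and 17601, high in all 4 libraries, and its antisense gene Tsix at 14.9, 11.7, 15.2 and 14.6. The strand mode of counting is not given, so reads of Xist and Tsix cannot be told apart where they overlap. The labels give no sex, and the Y-linked genes of the list were not analysed here.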

How the data were processed

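RNA was extracted with PureLink reagents, depleted of ribosomal RNA with Ribo-Zero, made into libraries with SMARTer kits and sequenced as single reads, per the labels' protocols. STAR, HTSeq and DESeq2 with the mm10 build appear in the submitters' processing notes; versions, the annotation, the strand mode and the handling of reads with more than 1 place are not given in the sources used here. The authors deposited a signal per gene, read counts divided by a size factor of each library, called normalized reads here. In each of the 4 libraries 100% of the 19961 values were whole multiples of the value of 1 read (0.662 to 1.24 normalized reads) within 0.01, and the reads recovered in this way gave depths and shares; 3 columns of other libraries were not used.

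Of the 19961 genes, 19875 matched GENCODE mouse release 21 (vM21), which gave exon lengths (overlapping exons of all transcripts merged), gene types and mm10 coordinates, and 86 had no length (0.0717% of reads). Levels are TPM, means ± SD over 4 libraries. Neighbours in an order were set apart only where their 4 libraries did not overlap. Both genes of a pair come from the same libraries and share their scale, which this rule ignores. An overlap therefore does not show that 2 genes had equal levels or changed order within a library. Dispersion was estimated with edgeR 4.0.16 in R 4.3.3, after a test on simulated data, and all other values with Python 3.11.15, pandas 2.3.3, numpy 2.4.6 and scipy 1.17.1. No test between groups was run, so there are no p-values, and intervals (exact, 95%) cover counting error only. Alternatives were other gene lengths, denominators, scalings, pseudocounts and filters, and leaving out each library. A scale over protein-coding genes and lists without Vtn or Cryab were added after seeing the data.

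The gene lists were chosen with earlier results of these data known. Named by rule were the 5 tissue markers, the 15 highest features and protein-coding genes, up to 6 highest and the lowest 2 of each list, all rod and cone pairs, pump subunits, connexins and identity factors, the 10 genes of highest and lowest CV with a mean of at least 100 normalized reads, and the sex-linked and ribosomal RNA features. Other genes named were chosen after their values were seen. Some genes are not reported here and were left out of the lists and rankings, but not of totals, shares of the highest features or counts over all genes.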

Additional observations from a re-analysis of the deposited data

Results flagged for a closer look

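The gap of 1 library to the other 3 passed the threshold in 12 of the 259 genes tested and in 0 of 32 list sums (4.12% of 291 in all), by Dixon's criterion on the gap to the nearest library as a share of the whole range. Chance gives about 1 in 20 such gaps, so the number is near what chance gives. In replicate 4 the highest value passed it for Crybb2 (gap of 0.874 of the range), Krt15 (0.866), Cryaa (0.865) and Jchain (0.839), and the lowest for Rmrp (0.844) and Cd79a (0.837). The lens genes Crybb2 and Cryaa stood at 0, 7.23, 5.30 and 57.1 and 4.96, 12.6, 3.97 and 68.3 normalized reads in replicates 1 to 4.

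In replicate 3 the lowest value passed it for C1qb (0.952), at 135, 135, 95.4 and 133 normalized reads, and the highest for Pvalb (0.908). In replicate 2 the highest passed it for Nhsl1 (0.833) and Rxrg (0.833). In replicate 1 the highest passed it for Mbd2 (0.858) and the lowest for Nr2e3 (0.842), which stood at 17294, 19785, 20027 and 20251. For 3 of these genes the CV over the 4 libraries was below that of counting noise alone, so their gaps show no library standing apart: 0.499% against 2.85% for Mbd2, which was tested because its CV was among the lowest, 3.40% against 6.02% for Pvalb and 4.31% against 7.66% for Rxrg.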

How the results depend on the processing

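No paired analysis was possible because 1 group alone was used. Leaving out each library in turn moved 1 of 48 recomputed main values beyond the spread set for it, that of the common biological CV. It was 8.81% with all 4 and ranged from 7.79% without replicate 2 to 9.57% without replicate 1. The spread set for this CV was the SD of its own values with each library left out, not a spread between libraries. That comparison therefore cannot decide whether the CV depends on a single library. The median log2 rod to cone ratio ranged from 4.42 to 4.52, and all 264 recomputed gene and list values stayed within their spread. Apart from the common biological CV, all values recomputed in this way were means over libraries. Leaving out 1 of 4 libraries cannot shift a mean by as much as the SD of the 4, whatever the data. For these means the comparison could therefore have no other outcome, and their dependence on a single library was not tested by it. Counted over protein-coding genes, the 10 highest features held 10.3% of reads in place of 13.0%, and the 100 highest 21.8% in place of 25.4%. With that denominator the list shares were 3.36% for rod, 4.32% for shared photoreceptor, 0.752% for Müller glia, 0.250% for cone, 0.186% for ON bipolar, 0.179% for amacrine and 0.144% for ganglion cell genes. With the longest transcript as length, the median log2 rod to cone ratio was 5.03 and the ratio of Pde6a to Pde6b turned from 1.13 to 0.939. Under settings other than leaving out a library, main values were recomputed 28 times, of which 15 stayed within their spread and 13 moved beyond it. Other gene and list values were recomputed 95 times, of which 47 stayed within their spread, 47 moved beyond it and 1 (Pde6a to Pde6b) turned. The mean Pearson correlation was 0.986 with a pseudocount of 0.1, 0.995 with 10 and 0.992 over genes with a mean of at least 10 normalized reads. Depth limited the lens, blood, lymphocyte and cornea lists most, with exact counting intervals of 10.3% to 22.0% of the share to either side.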
